A study of Mus musculus with 50 samples.

Results

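The 43 genes described here carry a cell from G1 into S phase and copy its DNA: the replicative helicase and its loaders, the polymerases, the sliding clamp and its loader, the enzymes of nucleotide supply, the cyclin and transcription factor of the G1/S transition, and factors that rebuild chromatin behind the fork. They were chosen by symbol from a list of such genes, and each was measured by the probe with the highest mean intensity over all arrays. They are 43 of 19057 genes with a probe. Of these members, 39 were detected on at least 3 of the 50 arrays and were tested among 12605 genes. The 4 others were Orc1, the largest subunit of the origin recognition complex, Pola1 and Prim1, the catalytic subunits of the polymerase that lays down primers, and Slbp, which binds the stem-loop of histone mRNAs. Orc1, Pola1 and Slbp were detected on 0 arrays.

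The study asked how the cap-binding translation factor eIF4E and a compound described as its inhibitor, 4Ei-1, change which mRNAs ride on polysomes. Derivatives of NIH 3T3, an immortalised mouse embryo fibroblast line, were grown and treated for 4 h. From each of 25 cultures, RNA carrying many ribosomes (heavy polysome RNA, from a sucrose gradient after cycloheximide) and total RNA were hybridised to Illumina bead arrays. The labels place the cultures in 4 processing batches.

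The inducible derivative, in which mifepristone switches on eIF4E, received mifepristone and 200 µM 4Ei-4, a weaker analog of 4Ei-1, in 3 cultures. It received mifepristone with 4Ei-1 at 0, 10, 50, 100 or 200 µM in 3 cultures each. Another 3 cultures of it were left without mifepristone. The non-inducible derivative was grown with mifepristone in 3 cultures and without it in 1, and neither received a compound. The labels do not say whether either derivative is 1 clone, or whether cultures of a group were grown apart, so p-values measure the spread between these cultures. The labels do not give which part of the gradient was collected as heavy, and lighter polysomes may lie outside it.

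Replication origins are licensed in G1, when the origin recognition complex, Cdc6 and Cdt1 load the MCM helicase on DNA, and fire in S phase, when Cdc45 and the GINS complex turn that helicase on. Many of these genes are transcribed in late G1 by E2F factors, which the retinoblastoma protein restrains until cyclin-dependent kinases phosphorylate it. In cultured fibroblasts their mRNA levels therefore follow the share of cells in late G1 and S phase. In RNA from a whole culture, fewer cells expressing a gene and less RNA per cell cannot be told apart.

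Letters of the E2F type stand close to the start of some members, and 4 matches are printed as examples. The letters searched were TTTGGCGC, TTTCCCGC, TTTGCCGC and TTTCGCGC on both strands, in the 300 bases from 250 before to 50 after the start (RefSeq, GRCm38.p6), and matches may overlap each other. Capitals mark the match, and each sequence reads 5′ to 3′ along the strand of its gene. They come from the plus strand at chr17:56304117-56304146 (Uhrf1), chr8:75109345-75109374 (Mcm5) and chr11:98908002-98908031 (Cdc6), and from the minus strand at chr1:128359734-128359763 (Mcm6).
Uhrf1: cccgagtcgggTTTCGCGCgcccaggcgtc
Mcm5: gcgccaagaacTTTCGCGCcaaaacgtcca
Mcm6: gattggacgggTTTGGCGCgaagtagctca
Cdc6: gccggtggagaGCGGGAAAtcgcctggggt
Of the 36 members with such a window, 12 held a match (33.3%), against 575 of 17491 protein-coding genes (3.29%). The commonest letters among members were TTTCGCGC, in 7 members and 92 protein-coding genes, and TTTGCCGC was in 0 members. The other members with a match were Cdt1, Lig1, Mcm3, Mcm7, Orc1, Pola1, Pold1 and Rfc3. A match of letters is a description of the window and not evidence of binding.

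Arrays had mean intensities of 183 to 436 and detected 23.9% to 39.9% of probes, and between 22 and 38 members were detected per array. On every array 19 members were detected, among them 6 of the 12 genes of the MCM helicase and its loading. The dimmest tested members were Cdc6, detected on 5 of 50 arrays, Pcna on 15, Pole on 17 and Orc2 on 21, so their values rest mostly on signals near background. Of 12 fibroblast markers, 11 were detected on every array and Pdgfrb on 48. No marker of blood, epithelium or endothelium was detected on every array, and Ptprc, Pecam1 and Cdh5 were detected on 0. Of the other markers Kdr was detected on 22 of 50 arrays, Cdh1 on 19, Krt8 on 13, Cd3e on 6 and each of the rest on 1 to 4. Their part in the results was not tested. The Eif4e probe was detected on 17 of 50 arrays. Between inducible cultures with and without mifepristone it differed by -0.50 ± 0.26 on the log2 scale in heavy RNA (SE, adjusted p = 0.641 in limma) and by 0.39 ± 0.20 in total RNA (adjusted p = 0.659), so it gives no check of the induction.

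Most replication mRNAs were relatively more abundant in heavy polysome RNA than in total RNA of the same culture. Intensities were quantile-normalised over all arrays, so a difference is relative to all other mRNAs on the arrays and not an absolute share of molecules on polysomes. Averaged over the 8 groups of 3 cultures, 30 of 39 members passed limma's test at an adjusted p below 0.05 ("called" throughout), 28 of them higher and 2 lower in heavy RNA. Of all genes tested, 46% were called, 27.1% higher and 18.8% lower. The members' median difference was 0.54 on the log2 scale, against 0.05 over all genes. That median depends on the processing: it was 0.28 without background correction, 0.18 with the authors' log2 values and 0.73 with heavy and total arrays normalised apart. Among genes detected on every array, 15 of 19 members were called and 14 were higher, against 74.1% and 44.8% of 4792 such genes.

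**Figure D1:**
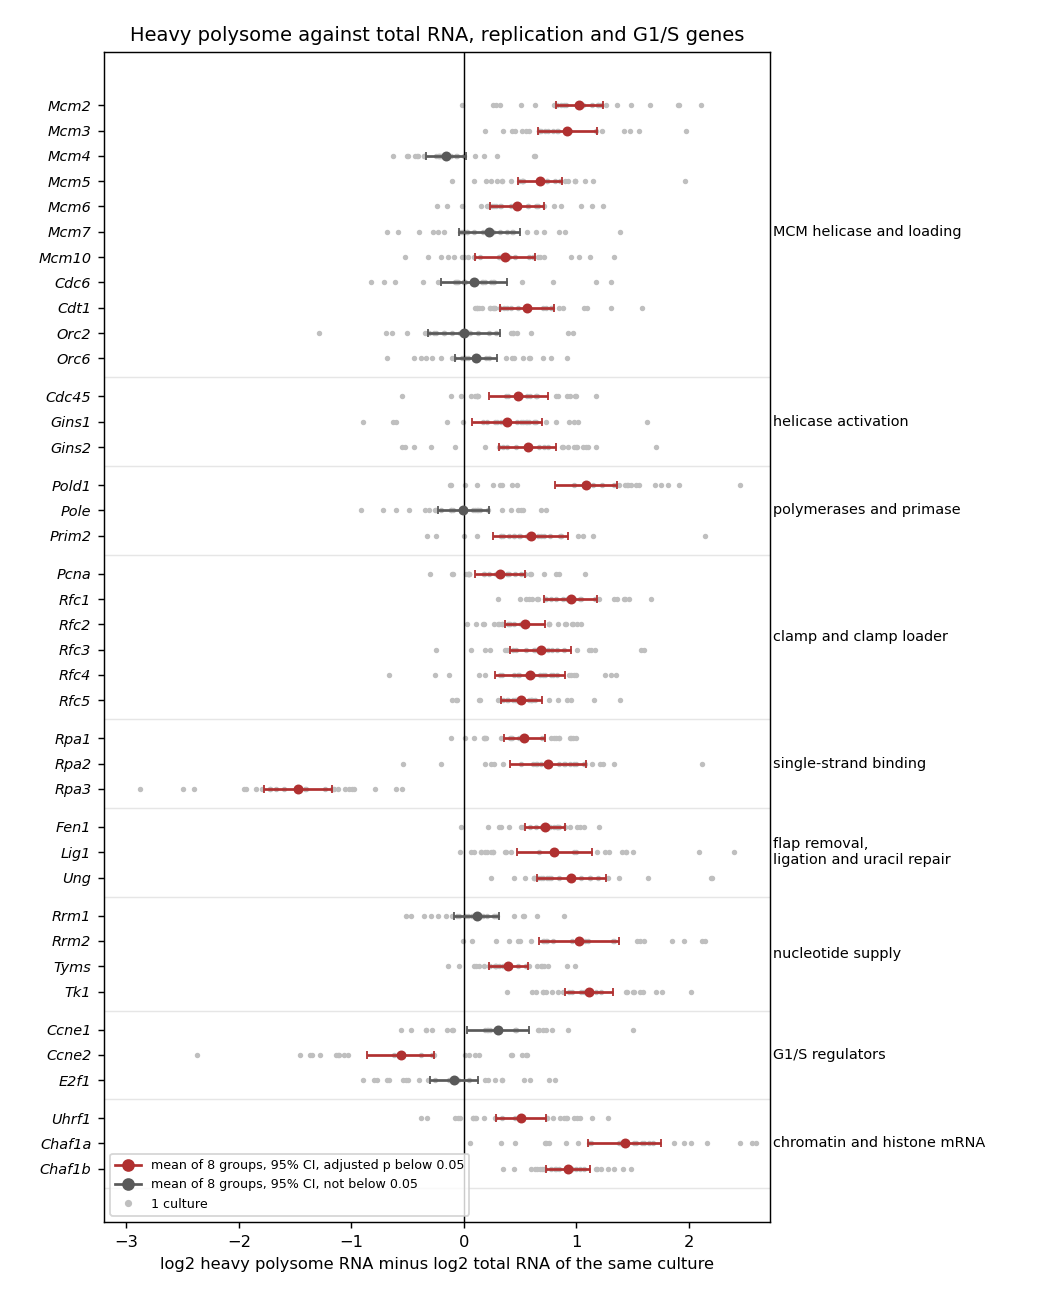
Log2 heavy polysome minus log2 total RNA for 39 replication and G1/S genes, grouped by role: grey points are the 25 cultures, and coloured points are means of 8 groups with 95% confidence intervals (red, adjusted p below 0.05). Rpa3 lies left of 0 in all 25 cultures, while Chaf1a, Tk1, Pold1 and Mcm2 average above 1.

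Among the helicase and its loaders, 6 of 11 tested members were higher in heavy RNA and 0 were lower. Mcm2, a subunit of the MCM ring, ran in heavy minus total RNA from -0.01 to 2.11 with a median of 1.01 over 25 cultures. It was above 0 in 24 of 25 cultures, and its fitted difference was 1.03 ± 0.10 (SE, adjusted p = 1.03e-08). The subunits were not alike. Mcm3, Mcm5 and Mcm6 were higher by 0.92 ± 0.12, 0.68 ± 0.09 and 0.47 ± 0.11, while the differences of Mcm7 (0.23, adjusted p = 0.183) and Mcm4 (-0.16, adjusted p = 0.153) did not pass. Mcm4 was above 0 in only 5 of 24 cultures. Cdt1, which brings the MCM ring to origins, was higher by 0.56 ± 0.12 and in 24 of 24 cultures, and Mcm10, a firing factor, by 0.37. The origin subunits Orc2 (0.00) and Orc6 (0.11) and the loader Cdc6 (0.09) gave adjusted p-values of 0.998, 0.386 and 0.696. All 3 tested helicase activators, Cdc45, Gins1 and Gins2, were higher, by 0.49, 0.38 and 0.57. The other Gins2 probes averaged 0.24 and 0.12. The call of Gins1 was lost in 12 of 24 fits that left out 1 culture, with adjusted p-values up to 0.07. It was also lost without background correction (adjusted p = 0.0808). With the authors' log2 values neither Gins1 (adjusted p = 0.173) nor Mcm10 (adjusted p = 0.107) was called.

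Of the polymerase genes, Pold1, the catalytic subunit of polymerase delta, had one of the largest differences. It ran from -0.12 to 2.46 with a median of 1.33 and a fitted difference of 1.09 ± 0.13 (adjusted p = 2.93e-07). Its group means were uneven, 1.82 ± 0.56 (SD, n = 3) with 200 µM 4Ei-1 and 1.40 ± 0.08 with 4Ei-4, against 0.16 ± 0.24 in the non-inducible line with mifepristone. Prim2, a primase subunit, was higher by 0.59, and Pole, the catalytic subunit of polymerase epsilon, differed by 0.00 (adjusted p = 0.984). Every clamp gene was called higher. The clamp Pcna was higher by 0.32 and the loader subunits Rfc2, Rfc3, Rfc4 and Rfc5 by 0.51 to 0.68. Pcna was detected on only 10 of 25 heavy and 5 of 25 total RNA arrays, so its difference rests mostly on signals near background. Its call was lost with the authors' log2 values (0.09, adjusted p = 0.0594). Rfc1, the large loader subunit, ran from 0.30 to 1.67 with a median of 0.88 and was above 0 in all 25 cultures (0.95 ± 0.11, adjusted p = 2.1e-07). The array holds 4 Rfc2 probes, each detected on at least 49 arrays, and they disagree: the probe used here averaged 0.54 and the others 0.20, 0.11 and -0.24. With the mean of the 4 probes Rfc2 was not called (0.16, adjusted p = 0.265). For Rfc4 and Prim2 the only other probe averaged 0.02 (detected on 19 arrays) and 0.19 (on 37). The other Rfc5 probes averaged 0.03 (on 15) and 0.03 (on 1). In 17 members with another probe detected on at least 3 arrays, 29 of 33 pairs of the probe used and another had the same sign.

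The 3 subunits of replication protein A, which coats single-stranded DNA, moved apart. Rpa1 and Rpa2 were higher in heavy RNA by 0.54 and 0.75, and Rpa3, the smallest subunit, was lower by -1.47 ± 0.15 (adjusted p = 1.41e-08). The other Rpa2 probes averaged 0.27 (detected on 14 arrays) and -0.13 (on 5). Rpa3 ran from -2.88 to -0.55 with a median of -1.40 and was below 0 in all 25 cultures. It was called lower in each of the 8 groups, with adjusted p-values of 2.3e-05 to 0.0253, where 7.54% to 13.7% of all genes were called lower. The genes of Okazaki fragment maturation and uracil removal were all higher. The flap nuclease Fen1 was higher by 0.72, the ligase Lig1 by 0.80 and the uracil glycosylase Ung by 0.96 ± 0.15. Ung was higher in 24 of 24 cultures. The other Lig1 probes averaged 0.67 (detected on 22 arrays), 0.36 (on 35) and 0.11 (on 11).

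For nucleotide supply, thymidine kinase, Tk1, ran from 0.38 to 2.02 with a median of 1.07 and was above 0 in every culture (1.11 ± 0.10, adjusted p = 3.52e-09). The ribonucleotide reductase subunits differed: Rrm2 was higher by 1.02, and the difference of Rrm1 was 0.11 (adjusted p = 0.39). Thymidylate synthase, Tyms, was higher by 0.40. Of the G1/S regulators, cyclin E2, Ccne2, was lower by -0.56 (adjusted p = 0.00225) but below 0 in only 16 of 24 cultures, with detection on 36 of 50 arrays. Cyclin E1, Ccne1 (0.30, adjusted p = 0.0693), and the transcription factor E2f1 (-0.09, adjusted p = 0.571) did not pass. Both tested subunits of the chromatin assembly factor were among the largest. Chaf1a ran from 0.05 to 2.60 with a median of 1.52 (1.43 ± 0.16), and Chaf1b from 0.35 to 1.49 with a median of 0.85 (0.93 ± 0.09, adjusted p = 1.79e-08). Uhrf1, which guides maintenance DNA methylation after replication, was higher by 0.50.

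The members' median was of similar size in every group. It was 0.52 with 4Ei-4 and 0.44, 0.53, 0.53, 0.52 and 0.56 with 4Ei-1 at 0, 10, 50, 100 and 200 µM. Without mifepristone it was 0.50, and in the non-inducible line with mifepristone 0.52. Of 36 other replication genes, 14 were called higher and 7 lower, among them Pold2, a second polymerase delta subunit (1.23, adjusted p = 1.34e-09). Of 21 other G1/S regulators, 9 were higher and 3 lower, with the D cyclins Ccnd1, Ccnd2 and Ccnd3 at 1.17, 2.01 and 1.04. Of 20 mitosis genes, 12 were higher and 3 lower. The medians of these lists were 0.12, 0.11 and 0.50.

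How far the members' levels differed between cultures of the same label depended on the group. In heavy RNA the residual SD of a member had a median of 0.37 on the log2 scale, against 0.29 over all genes and 0.63 for mitosis genes. The members detected on every array had a median of 0.29. Within batch 2, replicate 3 at 50 µM 4Ei-1 exceeded replicate 2 at the same dose in 30 of 39 members, with a median difference of 0.70 in heavy RNA and 0.60 in total RNA. At 100 µM the same holds for 30 of 39 members, with medians of 0.50 and 0.26. At 200 µM the same pair of replicates went the other way, with 15 of 39 members higher in replicate 3 and a heavy RNA median of -0.15. Both cultures without mifepristone in batch 3 differed by a median size of 0.12 in heavy RNA, against 0.19 over all genes, and replicates 1 and 2 with 4Ei-4 by 0.10, against 0.13. Replicate 3 with 4Ei-4 differed from replicates 1 and 2 by 0.18 and 0.26, against 0.16 and 0.16. The 3 pairs at 10 µM 4Ei-1 gave 0.21, 0.50 and 0.42, against 0.21, 0.21 and 0.22. In the non-inducible line with mifepristone they gave 0.23, 0.20 and 0.34, against 0.16, 0.17 and 0.18. The mitosis genes differed further between replicates 2 and 3 of the same dose, with medians of 1.70 at 50 µM and 1.49 at 100 µM in heavy RNA. In heavy minus total RNA members moved both ways between these replicates. At 50 and 100 µM, 22 and 18 of 39 were higher in replicate 3, with signed medians of 0.03 and -0.07. The median size of the difference there was 0.52 and 0.39, against 0.41 and 0.45 over all genes.

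**Figure D2:**
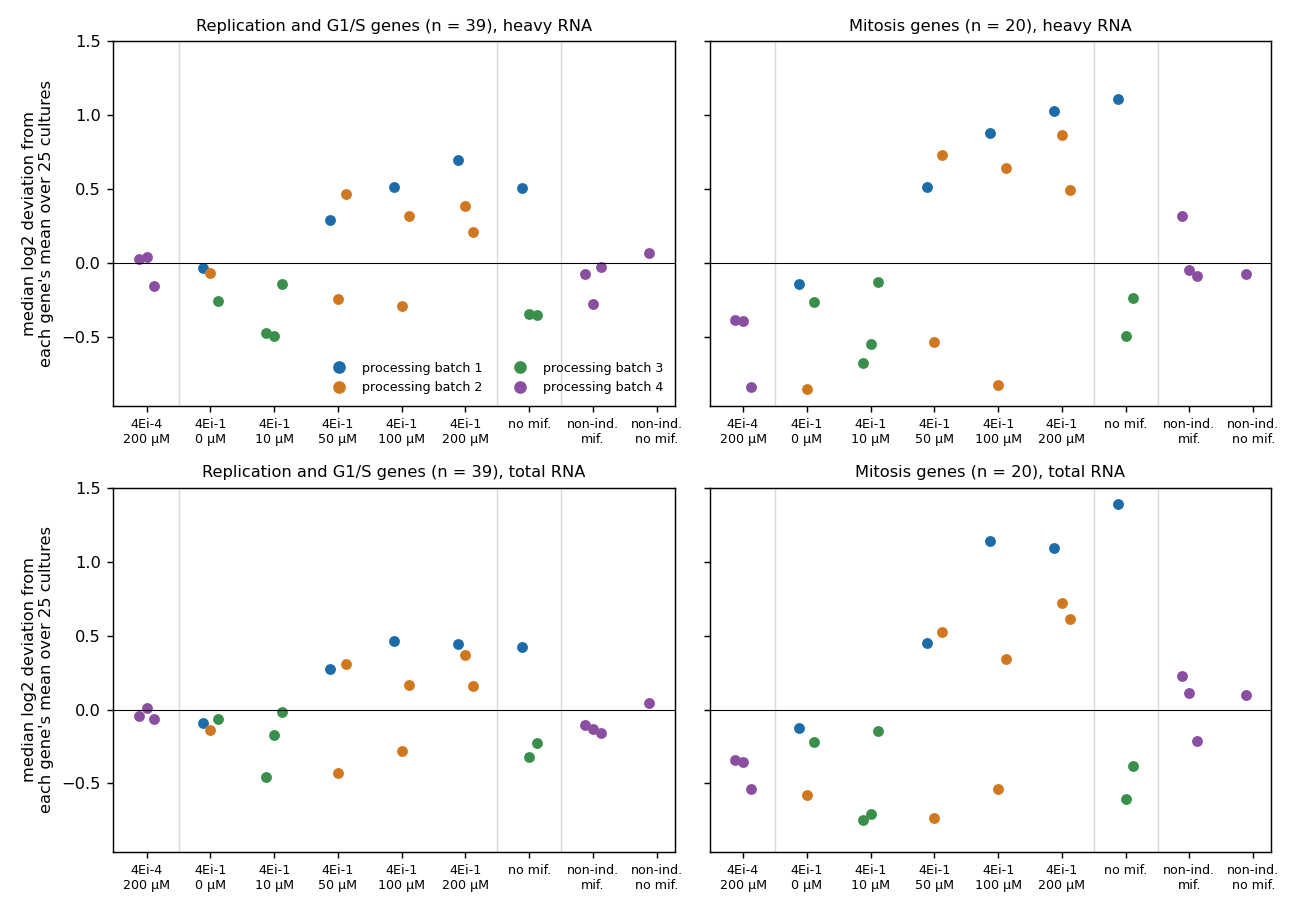
Median log2 deviation of 39 replication and G1/S genes (left) and 20 mitosis genes (right) from each gene's mean over the 25 cultures, in heavy (top) and total RNA (bottom). Each point is 1 culture, coloured by processing batch, and cultures of 1 group with 50 or 100 µM 4Ei-1 lie on both sides of 0.

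Inducing eIF4E addresses whether more of the factor moves these mRNAs onto polysomes. With mifepristone against without it in the inducible line, 0 of 39 members were called in heavy RNA, total RNA or heavy minus total RNA, where limma called 0.42%, 0.627% and 0% of all genes. At an unadjusted p under 0.05 there were 5 members in heavy RNA, 2 in total RNA and 2 in heavy minus total RNA, against 8.16%, 8.05% and 4.43% of all genes. The member medians were -0.29, -0.06 and -0.10, and in heavy RNA a member's 95% interval had a median half-width of 0.63. The batches gave opposite signs: in heavy RNA the median was -0.60 within batch 1 and 0.12 within batch 3. The culture without mifepristone in batch 1 had a median deviation of 0.51 from the members' means in heavy RNA, and both such cultures in batch 3 had -0.34 and -0.35. Without that batch 1 culture the heavy RNA median, less that of all genes, was 0.14, against -0.28 with it.

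Uhrf1 had the largest heavy RNA difference of any member. Its log2 intensities were 6.80, 5.14 and 7.20 with mifepristone, against 8.80, 7.04 and 7.33 without it. The groups overlapped, and the fitted difference of -1.13 (adjusted p = 0.594) was -2.00 in batch 1 and 0.02 in batch 3. Lig1 had 6.88, 4.85 and 6.50 with mifepristone, against 8.44, 6.15 and 6.51 without it (-0.80, adjusted p = 0.704). Mcm5 had 8.09, 6.85 and 7.46 with mifepristone, against 9.59, 7.22 and 7.46 without it (-0.75, adjusted p = 0.735). In both genes the batch 1 culture without mifepristone was the highest of the 6.

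Ung, which removes uracil from DNA, was separated between the groups. Its heavy RNA intensities were 7.39, 7.96 and 6.95 with mifepristone, against 6.67, 6.13 and 5.97 without it. All 9 pairs of cultures were higher with mifepristone, by 0.73 in batch 1 and 0.90 in batch 3, and the fitted difference was 0.91 ± 0.30 (adjusted p = 0.333). In total RNA it had 6.11, 7.27 and 6.51 with mifepristone, against 5.54, 5.19 and 5.34 without it (1.12 ± 0.51, adjusted p = 0.574). The heavy minus total difference of Ung was -0.21 (adjusted p = 0.999). In the non-inducible line the mifepristone difference of Ung in heavy RNA was -0.66 (adjusted p = 1), and the difference between the lines in the mifepristone effect was 1.58 ± 0.50 (adjusted p = 1).

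Ccne1 had 5.44, 4.47 and 5.50 in heavy RNA with mifepristone, against 4.68, 4.77 and 4.89 without it, and was detected on 3 of these 6 arrays (0.80, adjusted p = 0.228). Rpa1 (-0.47 ± 0.20, adjusted p = 0.517) and Mcm2 (-0.57 ± 0.25, adjusted p = 0.557) followed Ung by size of p among members detected on all 6 arrays. In total RNA these were Fen1 (-0.34) and Rrm1 (-0.40), and in heavy minus total RNA Mcm4 (-0.45 ± 0.21), Mcm2 (-0.52) and Mcm5 (-0.49), with adjusted p-values of 0.836 to 0.995. Ccne2 in total RNA was detected on 2 of 3 arrays with mifepristone and 0 of 3 without it. Its group mean was at least 2.15-fold higher with mifepristone, but limma's test with batch terms did not pass (adjusted p = 0.622). That bound sets the mean of the brighter group against the lowest signal of a detected probe on each array of the other, or the probe's own signal where higher. Such bounds, here and below, describe group means only and take no account of batch or of the spread between cultures. Within batch 1 the Ccne2 difference was 0.00, and within batch 3 it was 1.17.

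4Ei-1 was given to induced cells at 4 doses, to see which mRNAs leave polysomes when cap binding is inhibited. All 4 comparisons share the same 3 drug-free cultures with mifepristone. None of the 39 members was called at 10, 50, 100 or 200 µM in heavy RNA, where limma called 0%, 0%, 0.0397% and 0.0159% of all genes. In total RNA 0 members were called at each dose, beside 0%, 0.159%, 0.484% and 0.19% of all genes, and in heavy minus total RNA 0 members, beside 0%, 0.0159%, 0.317% and 0.436%. The heavy RNA medians of the members were 0.18, 0.17, 0.23 and 0.40 at 10, 50, 100 and 200 µM, and those in total RNA -0.03, 0.11, 0.18 and 0.34. Heavy minus total RNA had medians of 0.17, 0.07, 0.05 and 0.15. At an unadjusted p under 0.05 there were 2, 2, 5 and 12 members in heavy RNA, against 1.08%, 6.3%, 10.9% and 12.8% of all genes. In total RNA there were 1, 4, 6 and 11, against 1.28%, 12.1%, 13.7% and 11.8%. Heavy minus total RNA had 2, 4, 5 and 1, against 0.984%, 10.1%, 13.5% and 13.4%.

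**Figure D3:**
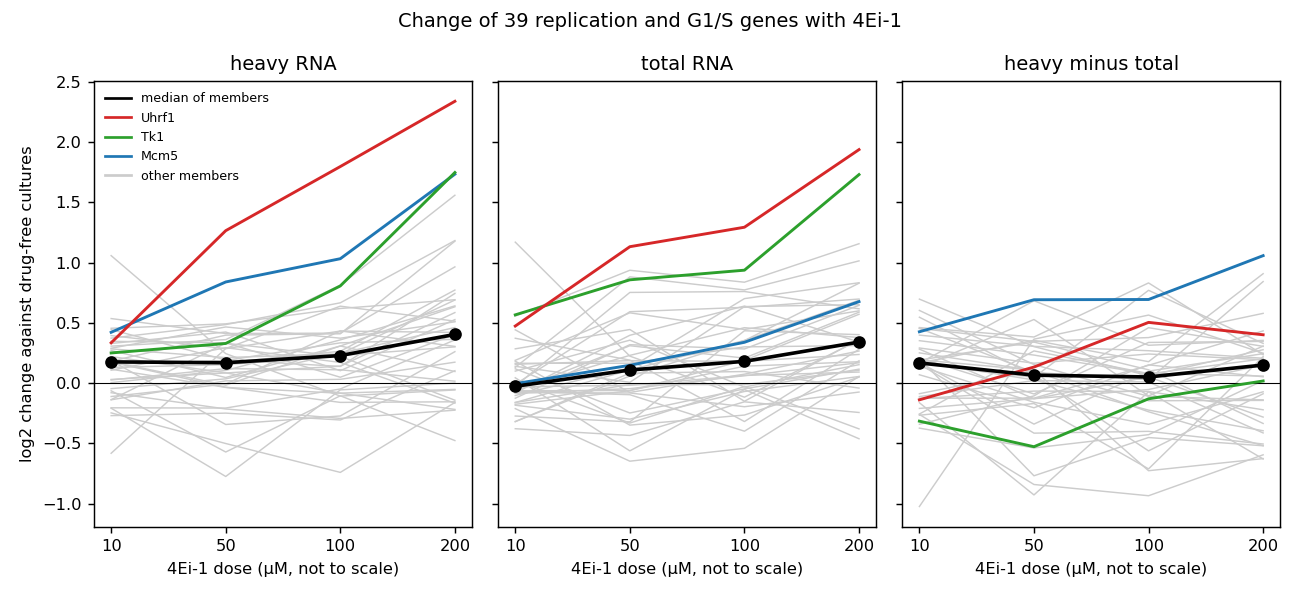
Log2 change of 39 replication and G1/S genes against drug-free induced cultures at 10, 50, 100 and 200 µM 4Ei-1 (dose axis not to scale), in heavy RNA, total RNA and heavy minus total RNA, with the members' median in black. At 200 µM the medians are 0.40 in heavy RNA, 0.34 in total RNA and 0.15 in heavy minus total RNA, and no change shown was called.

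At 200 µM, 29 of 39 members were above drug-free cultures in heavy RNA and 34 of 39 in total RNA, against 48.7% and 50.7% of all genes. All 12 members at an unadjusted p under 0.05 in heavy RNA were higher, as were all 11 in total RNA. Within batch 1 the heavy RNA median was 0.64 and within batch 2 it was 0.37. By role, the heavy RNA medians were 0.94 for the 4 genes of nucleotide supply, 0.77 for the 3 chromatin genes and 0.64 for the 3 of flap removal, ligation and uracil repair. They were 0.36 for the 11 genes of the MCM helicase and its loading, 0.32 for the 6 clamp genes and 0.00 for single-strand binding. The 20 mitosis genes had a median of 1.22 in heavy RNA, all 20 above drug-free cultures, and 0.89 in total RNA. That of 36 other replication genes was 0.07, and that of 21 other G1/S regulators -0.05.

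The 5 members with the largest heavy RNA changes were also among the most variable genes. Their residual SDs in heavy RNA stood at percentiles 98.6 (Uhrf1), 99.9 (Tk1), 97.3 (Mcm5), 96.9 (Lig1) and 97.7 (Rrm2) of all genes tested. Uhrf1 had the largest difference. Its heavy RNA intensities were 9.03, 8.44 and 8.08 with 200 µM 4Ei-1, against 6.80, 5.14 and 7.20 drug-free. The groups did not overlap, and the difference was 2.34 ± 0.52 (adjusted p = 0.0755), 2.23 in batch 1 and 3.11 in batch 2. In total RNA Uhrf1 had 7.89, 7.58 and 7.17 with 200 µM 4Ei-1, against 5.83, 5.03 and 7.10 drug-free (1.94 ± 0.47, adjusted p = 0.097). Without drug-free replicate 3, its highest drug-free culture in both fractions, Uhrf1 was called in both, with a heavy RNA difference of 2.70 (adjusted p = 0.0221) and a total RNA difference of 2.27 (adjusted p = 0.0168). Over fits that left out each of the 6 cultures its adjusted p ran from 0.0221 to 0.571 in heavy RNA and from 0.0168 to 0.293 in total RNA. Tk1 had 8.69, 8.63 and 8.85 in heavy RNA with 200 µM 4Ei-1, against 7.22, 6.33 and 6.73 drug-free (1.75 ± 0.70, adjusted p = 0.307). Its total RNA difference was 1.73 and its heavy minus total difference 0.02.

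Mcm5 had 9.57, 9.03 and 9.39 in heavy RNA with 200 µM 4Ei-1, against 8.09, 6.85 and 7.46 drug-free (1.73 ± 0.47, adjusted p = 0.131). It also differed in heavy minus total RNA, with 0.92, 1.08 and 1.97 with 200 µM 4Ei-1, against 0.53, -0.11 and 0.09 drug-free. All 9 pairs were higher with the compound, and the difference of 1.06 ± 0.28 (adjusted p = 0.1) was 0.40 in batch 1 and 1.63 in batch 2. Lig1 had 8.57, 7.35 and 6.49 in heavy RNA with 200 µM 4Ei-1, against 6.88, 4.85 and 6.50 drug-free (1.56 ± 0.46, adjusted p = 0.164), and these overlap. Rrm2 had 7.07, 6.28 and 6.14 in heavy RNA with 200 µM 4Ei-1, against 5.45, 4.94 and 5.73 drug-free (1.18 ± 0.48, adjusted p = 0.313), without overlap.

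Tyms varied less between drug-free cultures. In total RNA it had 8.95, 8.33 and 8.37 with 200 µM 4Ei-1, against 7.77, 7.76 and 7.72 drug-free (0.83 ± 0.21, adjusted p = 0.113). In heavy RNA it had 9.18, 8.88 and 8.46 with 200 µM 4Ei-1, against 8.05, 8.10 and 7.90 drug-free (0.69 ± 0.27, adjusted p = 0.307). Neither pair of groups overlapped, and the heavy minus total difference was -0.14. In total RNA the members detected on all 6 arrays with the next smallest p were Gins2 (0.70, adjusted p = 0.316) and Fen1 (0.59, adjusted p = 0.354). After Mcm5, those in heavy minus total RNA were Rrm1 (-0.52, adjusted p = 0.399) and Pold1 (0.58, adjusted p = 0.402).

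**Figure D4:**
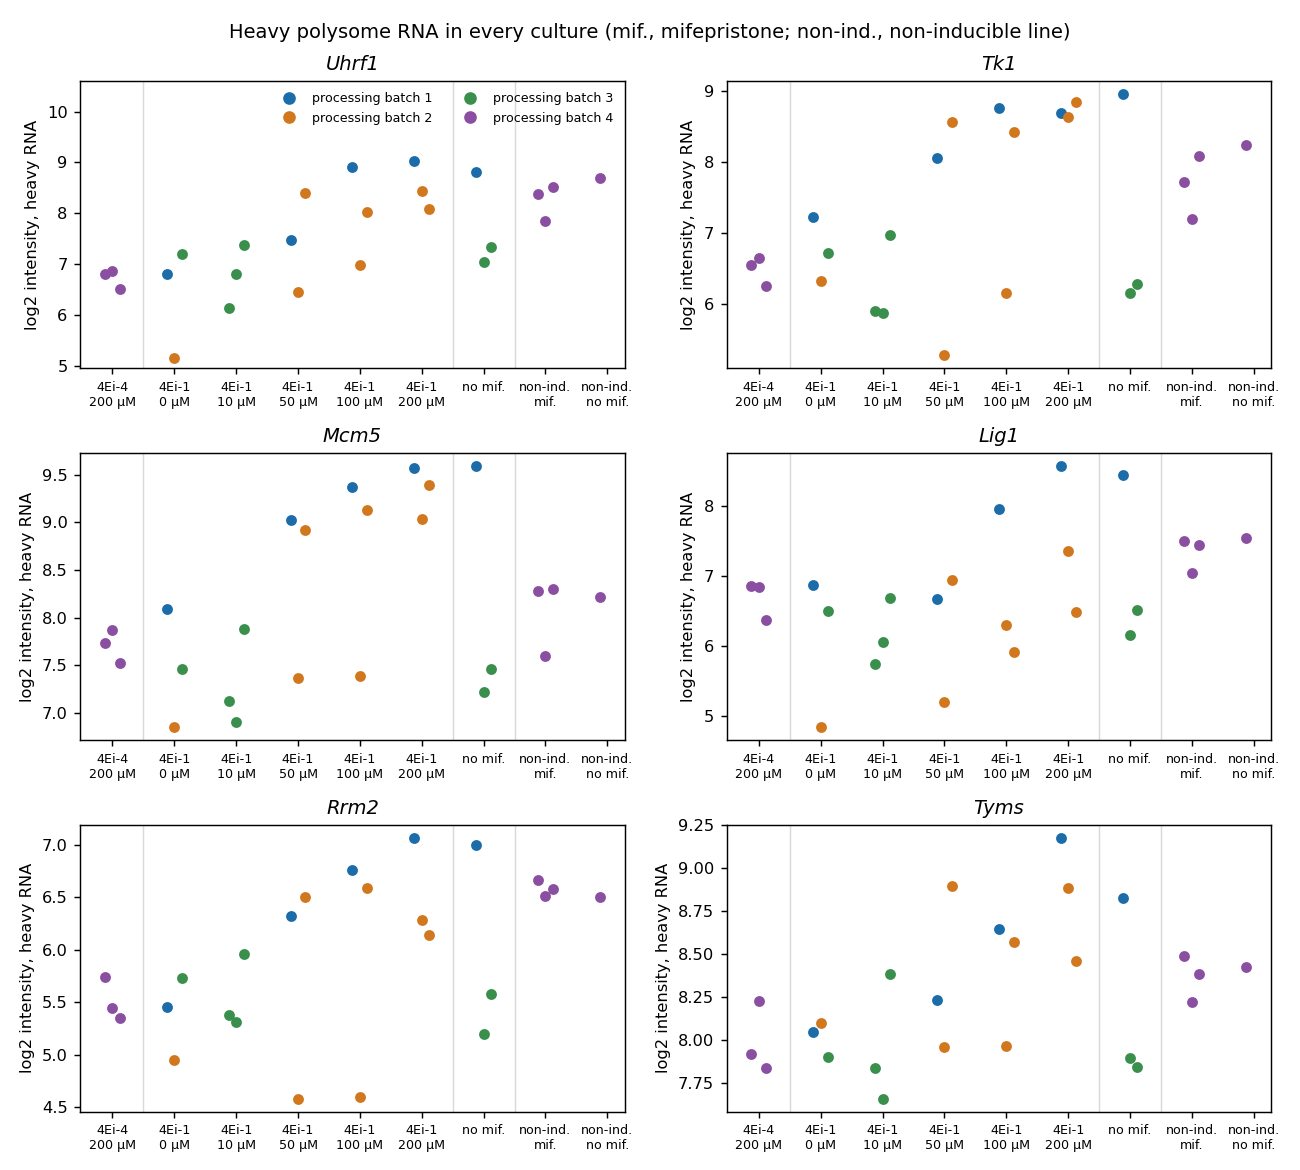
Log2 heavy RNA intensity of Uhrf1, Tk1, Mcm5, Lig1, Rrm2 and Tyms in each of the 25 cultures, 1 panel a gene, by group and coloured by processing batch. With 200 µM 4Ei-1 Tk1 lies between 8.63 and 8.85, while cultures given 50 or 100 µM spread between 5.29 and 8.76.

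At the lower doses the members with the smallest p in heavy RNA were mostly MCM genes. They were Mcm3 (0.45), Mcm2 (0.39) and Cdt1 (0.35) at 10 µM, with adjusted p-values of 1. Leaving out the batch terms turned Mcm3 and Mcm2 to -0.42 and -0.58, since all 10 µM cultures are in batch 3, which holds 1 drug-free culture. At 50 µM they were Mcm5 (0.84, adjusted p = 0.847), Mcm3 (0.49) and Mcm4 (0.29), and at 100 µM Mcm5 (1.03, adjusted p = 0.427), Mcm3 (0.62) and Mcm2 (0.43). In heavy minus total RNA Mcm5 differed by 0.69 at 50 µM (adjusted p = 0.399) and by 0.69 at 100 µM (adjusted p = 0.272), higher in 9 of 9 pairs at both doses. At 100 µM Mcm2 differed in heavy minus total RNA by 0.83 ± 0.27 (adjusted p = 0.159). Gins2 ran the other way there, by -0.84 at 50 µM (adjusted p = 0.367) and -0.94 at 100 µM (adjusted p = 0.188), as did Rrm1 at 50 µM (-0.77, adjusted p = 0.287). In total RNA the smallest p fell to Tyms (-0.32), Rpa1 (-0.16) and Rpa2 (-0.38) at 10 µM, to Gins2 (0.59), Rrm1 (0.75) and Rpa3 (0.23) at 50 µM, and to Rpa3 (0.46), Gins2 (0.63) and Rrm1 (0.76) at 100 µM. The smallest adjusted p among those values was 0.249. At 10 µM, heavy minus total RNA gave Tyms 0.60, Cdc45 0.70 and Mcm2 0.46 (adjusted p = 1).

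A slope over the 5 group means gave a member median of 0.16 per 100 µM in heavy RNA, with 30 of 39 slopes above 0. Of the members 0 were called and 8 had an unadjusted p under 0.05 in heavy RNA, where limma called 0% of all genes. In total RNA 0 were called and 9 had such a p, beside 0.0397% of all genes called, and in heavy minus total RNA 0 and 2, beside 0.0238%. Of all genes 11.8%, 10.4% and 11.8% had such a p. Tyms in total RNA sloped by 0.50 ± 0.11 per 100 µM (adjusted p = 0.108), Mcm5 in heavy RNA by 0.77 ± 0.25 (adjusted p = 0.213) and in heavy minus total RNA by 0.42. Rfc5 and E2f1 sloped by 0.25 and 0.23 in heavy RNA, and Rpa3 and Gins2 by 0.22 and 0.35 in total RNA.

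The groups given 200 and 50 µM lie in the same batches in equal numbers, and 0 members were called between them (0.23% of all genes in heavy RNA, 0.0397% in total RNA, 0.294% in heavy minus total RNA). At an unadjusted p under 0.05 there were 9, 2 and 3 members, against 12.3%, 8.26% and 13.2% of all genes. The heavy RNA median was 0.31, with E2f1 at 0.57 ± 0.19 (adjusted p = 0.241) higher in 9 of 9 pairs and Mcm4 at -0.46 (adjusted p = 0.329) higher in 0 of 9. Mcm4 also had the smallest adjusted p in heavy minus total RNA (-0.68 ± 0.20, adjusted p = 0.148), and Tyms that in total RNA (0.77 ± 0.20, adjusted p = 0.153). Set against uninduced cultures, those with mifepristone and 200 µM 4Ei-1 also had 0 members called (0.309%, 0.5% and 0% of all genes) and 3, 2 and 2 at an unadjusted p under 0.05 (11.1%, 11.3% and 9.08% of all genes). The heavy RNA median was 0.26 overall and -0.02 within batch 1. Ung was higher by 1.17 (adjusted p = 0.179) and Uhrf1 by 1.21 (adjusted p = 0.495), and Mcm4 differed by -0.59 (adjusted p = 0.345).

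4Ei-4 at 200 µM was included to look for non-specific effects of the compound. At matched dose and time, 1 pair of compounds could be compared. The 4Ei-1 cultures are in batches 1 and 2 and the 4Ei-4 cultures in batch 4, so compound and batch cannot be told apart. Between 4Ei-1 and 4Ei-4, 0 members were called in heavy RNA, total RNA or heavy minus total RNA, where limma called 0%, 0.00793% and 0% of all genes, and 3, 2 and 2 members had an unadjusted p under 0.05, against 6.12%, 4.49% and 5.77% of all genes. The medians were 0.38 in heavy RNA (31 of 39 above 0), 0.37 in total RNA (32 of 39) and 0.04 in heavy minus total RNA. The heavy RNA direction depended on the normalisation. With median centring the median less that of all genes was -0.087 in heavy and 0.16 in total RNA. In heavy RNA 2 members were then called, 0 of them higher, beside 933 of 12605 genes. In heavy RNA a member's 95% interval had a median half-width of 1.05. That interval is not adjusted for the number of genes tested, so differences of that size and larger in either direction could go uncalled. Rfc5 had 8.19, 8.20 and 8.27 in heavy RNA with 4Ei-1, against 7.32, 7.41 and 7.11 with 4Ei-4. These groups did not overlap, and the difference was 0.90 with a 95% interval of 0.26 to 1.55 (adjusted p = 0.678). For Uhrf1 it was 1.95 with an interval of 0.28 to 3.62, and for Mcm5 1.57 with an interval of 0.03 to 3.12. In total RNA Gins2 differed by 0.87 (0.05 to 1.69), Uhrf1 by 1.54 (0.08 to 3.01) and Tyms by 0.62 (-0.03 to 1.27). In heavy minus total RNA Mcm5 differed by 0.84 (0.21 to 1.48), Tk1 by 0.72 (0.04 to 1.40) and Mcm6 by -0.60. The mitosis genes had a median of 1.24 in heavy RNA, with 19 of 20 higher with 4Ei-1.

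With 4Ei-4 against the same drug-free cultures, 0 members were called (0%, 0.00793% and 0.00793% of all genes in heavy, total and heavy minus total RNA), and 0 had an unadjusted p under 0.05 in any of the 3, against 2.5%, 2.78% and 3.87% of all genes. The medians were 0.12, 0.08 and 0.02. The smallest p fell to Gins2 (-0.70), Rpa1 (0.49) and Rfc2 (-0.49) in heavy RNA, to E2f1 (-0.50), Pold1 (-0.49) and Rrm1 (0.53) in total RNA, and to E2f1 (0.62), Rpa1 (0.51) and Gins2 (-0.54) in heavy minus total RNA, all with adjusted p-values of 1.

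The inducible line with 4Ei-4 was set against the non-inducible line, both with mifepristone and both in batch 4, so that line and compound differ together and cannot be told apart. In heavy RNA 12 of 39 members were called, 6 higher and 6 lower, beside 31.7% of all genes (16% higher, 15.7% lower). In total RNA 8 were called beside 24.8%, 2 higher (12.5% of all genes) and 6 lower (12.3%). In heavy minus total RNA 8 were called beside 11.7%, 4 higher (6.66%) and 4 lower (5.05%). Without non-inducible replicate 3 the heavy RNA count was 7, and without 4Ei-4 replicate 2 the total RNA count was 5. Leaving out any 1 of the 6 cultures left 2 to 4 members in heavy minus total RNA, and fits without batch terms called 5, 4 and 2 members. Neither the heavy nor the total RNA share exceeds its background. Every called member was higher in 9 of 9 pairs of cultures or in 0 of 9.

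Of the 11 tested genes of the MCM helicase and its loading, Mcm2 and Mcm3 were called higher in heavy RNA of the inducible line and Orc6 lower. Mcm2 had 8.87, 8.94 and 8.37 with 4Ei-4 in the inducible line, against 7.35, 6.77 and 7.50 in the non-inducible line (1.52 ± 0.23, adjusted p = 4.56e-05). Mcm3 had 6.91, 7.20 and 6.68, against 5.67, 5.51 and 5.94 in the non-inducible line (1.22 ± 0.27, adjusted p = 0.0013). Chaf1a had 7.57, 7.76 and 7.40, against 6.11, 5.90 and 6.62 in the non-inducible line (1.37 ± 0.37). These groups did not overlap in any of the 3 genes. With the authors' log2 values Chaf1a was not called (0.54, adjusted p = 0.0618). Rrm1 had 7.68, 7.75 and 7.45 with 4Ei-4 in the inducible line, against 6.61, 6.22 and 6.65 in the non-inducible line (1.13 ± 0.32). Ung (1.13 ± 0.28) and Rpa1 (0.72 ± 0.18) were also higher. For Mcm2 the heavy minus total difference was also called (0.97 ± 0.25, adjusted p = 0.0157).

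Lower in heavy RNA of the inducible line were members of several roles. Rfc4 had 6.01, 6.12 and 5.90 with 4Ei-4 in the inducible line, against 7.58, 7.22 and 7.80 in the non-inducible line (-1.52 ± 0.26, adjusted p = 0.000119). Uhrf1 had 6.80, 6.86 and 6.50, against 8.37, 7.84 and 8.50 in the non-inducible line (-1.52 ± 0.49, adjusted p = 0.0211). Gins2 had 6.19, 6.24 and 6.04, against 6.86, 7.09 and 6.81 in the non-inducible line (-0.76 ± 0.27). Orc6 had 8.62, 8.78 and 8.70, against 9.25, 9.24 and 9.50 in the non-inducible line (-0.63 ± 0.18), and Rfc2 differed by -0.62 ± 0.22. Pcna was not well above background on any of the 3 arrays with 4Ei-4, and its group mean was at least 1.44-fold lower there. With the authors' log2 values Pcna differed by -0.08 and was not called (adjusted p = 0.261). When 1 culture was left out, Gins2 lost its call in 6 of 6 fits, Rfc2 in 5, Uhrf1 in 3, Pcna in 2 and Orc6 in 1.

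In total RNA Uhrf1 had 6.06, 6.12 and 6.55 in the inducible line with 4Ei-4, against 8.03, 8.17 and 8.42 in the non-inducible line (-1.97 ± 0.44, adjusted p = 0.0022). Lig1 had 5.42, 5.55 and 5.37, against 7.12, 7.08 and 7.24 in the non-inducible line (-1.70 ± 0.41, adjusted p = 0.0041). Neither gene's groups overlapped. Rfc4 (-1.25 ± 0.30), E2f1 (-0.78 ± 0.24) and Pold1 (-0.76 ± 0.26) were also lower, as was Pcna by at least 1.16-fold, and Rpa3 (0.68 ± 0.16) and Ccne2 (1.25 ± 0.33) were higher. In fits without 1 culture Pold1 lost its call in 5 of 6 and E2f1 and Pcna in 3. Pold1 was higher in heavy minus total RNA, with 1.38, 1.33 and 1.49 in the inducible line with 4Ei-4, against 0.26, -0.11 and 0.34 in the non-inducible line (1.24 ± 0.27, adjusted p = 0.0059). E2f1 (0.89 ± 0.26) and Rrm1 (0.75 ± 0.24) were higher too, and Rfc5 (-0.78 ± 0.22), Orc6 (-0.76 ± 0.24) and Rfc2 (-0.70 ± 0.21) were lower. Ccne2 differed by -1.71 ± 0.35, but its heavy RNA was not well above background on any 4Ei-4 array, where it was at least 1.28-fold lower in heavy RNA. Of these 8 members, only Pold1 and Ccne2 stayed called in all 6 fits without 1 culture. Both lost that call under other processing, Pold1 without batch terms (adjusted p = 0.0647) and Ccne2 with the authors' log2 values (-0.20, adjusted p = 0.227). With those values the total RNA calls of Ccne2 (0.18, adjusted p = 0.371) and Pcna (-0.22, adjusted p = 0.111) were lost too.

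**Figure D5:**
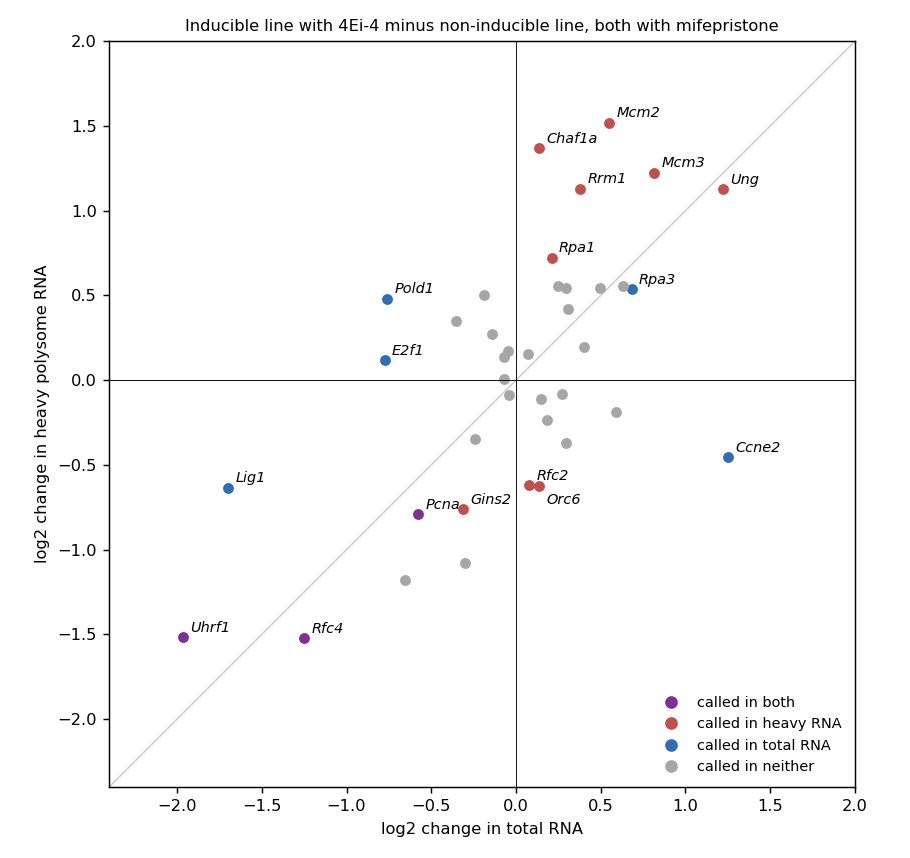
Log2 difference of 39 replication and G1/S genes between the inducible line with 4Ei-4 and the non-inducible line, both with mifepristone, in total RNA (horizontal) and heavy RNA (vertical), with called members named and the diagonal marking equal differences. Uhrf1, Rfc4 and Pcna were called lower in both, and Mcm2 and Chaf1a lie above the diagonal.

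Without a compound, the inducible and non-inducible lines with mifepristone lie in different batches (1 to 3 against 4). There 0 members were called in heavy RNA, total RNA or heavy minus total RNA, beside 2.59%, 6.22% and 0.0159% of all genes, and 4, 4 and 2 had an unadjusted p under 0.05, against 15%, 19.7% and 8.06% of all genes. Uhrf1 in total RNA differed by -2.22 (adjusted p = 0.0589) and in heavy RNA by -1.86 (adjusted p = 0.248), lower in all 9 pairs of cultures. In total RNA it was called without inducible replicate 3 (-2.86, adjusted p = 0.007), with the replicate number as a block (adjusted p = 0.0255) and with the authors' log2 values (adjusted p = 0.0297). In heavy RNA Ung differed by 1.12 (adjusted p = 0.228), Mcm2 by 1.03 (adjusted p = 0.298) and Orc6 by -0.59 (adjusted p = 0.364). In total RNA Rfc5 differed by 0.89 (adjusted p = 0.229), Rpa3 by 0.49 (adjusted p = 0.273) and Ung by 1.09. In heavy minus total RNA Rfc5 differed by -0.66 (adjusted p = 0.551) and Rrm1 by 0.67 (adjusted p = 0.572). Mifepristone in the non-inducible line, 3 cultures against 1, gave 0 called members and 0% of all genes called in all 3 measures, with 1, 0 and 0 members at an unadjusted p under 0.05 (0.571%, 0.92% and 0.286% of all genes). Medians there were -0.16 in heavy and -0.16 in total RNA, and Mcm2, Ung and Mcm7 had the smallest p in heavy RNA (-0.75, -0.66 and -0.61, adjusted p = 1). The mifepristone effect did not differ between the lines by test in any member (0 called, beside 0.0397%, 0.0317% and 0% of all genes), with 2, 0 and 0 members at an unadjusted p under 0.05 (3.02%, 3.66% and 1.21% of all genes).

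Members with the E2F-type letters near their start were also described apart. With 200 µM 4Ei-1 the 10 tested members with a match had a median heavy RNA difference of 0.58, 9 of 10 above 0, and the 22 tested members without one a median of 0.44, 17 of 22 above 0. Averaged over groups, the medians of heavy minus total RNA were 0.62 with a match and 0.52 without. These are descriptions of 2 small sets and were not tested.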

How the data were processed

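Bead array intensities and a detection p-value per probe were deposited by the authors for 50 arrays, with a table of their processed log2 values. The normalisation of that log2 table is not stated in the labels. The intensities were corrected with normexp from the detection p-values (offset 16), quantile-normalised over all arrays and put on the log2 scale. Of 45281 probes, 34885 had 1 gene symbol, 18 had several and 10378 were not listed in the annotation, and 19057 genes had a probe. The probe with the highest mean intensity stood for its gene, and the test covered 12605 genes whose detection p was under 0.05 on 3 or more arrays.

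Groups were taken from the labels. Heavy RNA, total RNA and heavy minus total RNA of each culture were fitted over all 25 cultures in limma 3.58.1 (R 4.3.3, statmod 1.5.0), with group and processing batch as fixed terms. Batch was a random block where the groups share no batch and for heavy against total RNA. P-values were adjusted by Benjamini-Hochberg over all genes tested, and "higher in n of 9 pairs" counts pairs of cultures. The steps were tested on simulated data. Array precision is limited by 3 or fewer cultures a group.

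Every called member was named. Where none was called, up to 3 with the smallest p were named from members detected on all arrays of that comparison. In some comparisons and measures fewer or none were named. For induction, 200 µM 4Ei-1 and heavy against total RNA the 5 largest changes were named too. Role groups, other lists, promoter letters and tests were chosen with earlier results of these data known. Alternatives covered background correction, normalisation, the authors' log2 table, the detection filter, the choice of probe, the batch terms, the replicate number as a block, and leaving out each culture. Same-numbered cultures deviated together (all 3 correlations above 0.1) in 4 of 28 pairs of groups in heavy RNA, 2 in total RNA and 1 in heavy minus total RNA, so the numbers were not taken as pairing.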

Additional observations from a re-analysis of the deposited data

How the results depend on the processing

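The members' median less that of all genes, and the count of members called, were recomputed for each comparison and measure. Under other processing, 393 counts stayed within 1.5 times the value reported and 27 did not, and 398 medians moved by less than 1 SD of a culture's median and 22 by more. Within batches 15 medians moved by more and 27 by less. Leaving out 1 culture moved 20 counts and 17 medians past these limits and left 283 and 286 within them. The cause was not tested unless stated. For heavy against total RNA the median less that of all genes was 0.26 without background correction, 0.66 with median centring or with heavy and total arrays quantile-normalised apart, 0.17 with the authors' log2 values, 0.35 over genes on every array (15 called, fewer genes being tested) and 0.33 with the mean of a gene's probes. The induction median was -0.61 in batch 1 and 0.14 in batch 3 for heavy RNA, and -0.60 and 0.23 for total RNA. At 200 µM 4Ei-1 the authors' log2 values gave 0.18 in heavy and 0.11 in total RNA, and batch 1 gave 0.65 in heavy RNA.

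Median centring shifted the median of all genes by 0.42 in heavy and 0.72 in total RNA for 4Ei-4, by -0.74 and -0.56 for 4Ei-1 against 4Ei-4, and by -0.59 and -0.86 between the lines. Relative to all genes the members' heavy medians were then 0.48 for 4Ei-4 and -0.087 for 4Ei-1 against 4Ei-4. With the shift of all genes left in, signs turned for Rfc2 (0.38) in heavy and E2f1 (0.64) and Pold1 (0.65) in total RNA with 4Ei-4. They also turned for Rfc5 (-0.36) in heavy and Tyms (-0.31) in total RNA between the compounds. Between the lines they turned for Ung (-0.028) and Mcm2 (-0.16) in heavy and Rfc5 (-0.58), Rpa3 (-0.96) and Ung (-0.15) in total RNA. All but that of Rpa3 were smaller in size than the shift of all genes in their comparison. For the induction in heavy minus total RNA, median centring gave Mcm4 0.015 and Ung 0.36. Ung also gave 0.011 there without background correction and 0.13 with the authors' log2 values. Without batch terms Mcm3 (-0.42) and Mcm2 (-0.58) in heavy RNA turned at 10 µM, and Tyms (0.025) in heavy minus total RNA at 200 µM.

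Counts under median centring were 13 in total RNA for 4Ei-4 against the non-inducible line, 2 in heavy RNA between the compounds, 10 in heavy and 5 in total RNA between the lines, and 1, 1 and 2 in heavy minus total RNA at 50, 100 and 200 µM. Without batch terms they were 10 for the heavy RNA slope and 4 for the heavy minus total slope, 1 for heavy RNA of 200 µM against no mifepristone, 5, 4 and 2 for 4Ei-4 against the non-inducible line in heavy, total and heavy minus total RNA, 1 in heavy RNA between the compounds, and 3 in heavy and 3 in total RNA between the lines. The heavy RNA count of 200 µM against no mifepristone was also 1 with separate quantile normalisation and with the mean of probes, and the heavy minus total slope gave 1 with batch as a random block. Between the lines 1 member was called in heavy and 1 in total RNA with the authors' values and with no filter, and 1 in total RNA without background correction. On every array 4 were called in total RNA for 4Ei-4 against the non-inducible line.

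The replicate number as a block changed the count between the lines in total RNA to 1 and moved no other count by over 1.5 times, with correlations of same-numbered cultures of -0.403 to 0.64 in heavy RNA, and Tk1 in heavy minus total RNA at 200 µM turned to -0.017. Leaving out 1 culture moved the induction median between -0.59 and 0.14 in heavy and -0.42 and 0.23 in total RNA. Counts ranged from 7 to 11, 5 to 7 and 2 to 4 for 4Ei-4 against the non-inducible line in heavy, total and heavy minus total RNA, from 0 to 2 in total RNA between the lines, and from 0 to 1 for 10 other comparisons with 0 called. Rpa1 (-0.25 to 0.032) and Rpa2 (-0.68 to 0.55) in total RNA at 10 µM turned, as did Uhrf1 (-2.36 to 0.020), Lig1 (-1.83 to 0.17) and Mcm5 (-1.68 to 0.12) in heavy RNA for the induction, Tk1 (-0.18 to 0.20) in heavy minus total RNA at 200 µM, and Pold1 (-1.15 to 0.17) in the mifepristone effect between the lines. A slide block was not run, since the files name no slides. Signal near background limits Cdc6, Pcna, Pole and Orc2.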
